A study of Mus musculus with 18 samples.

Results

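RNA was compared between cultures of dorsal root ganglion (DRG) sensory neurons kept for 48 h and for 12 h, all from mice heterozygous for the tm1a allele of Dynlrb1 (HET). Members were chosen by genotype and time alone: 3 HET cultures at 12 h (replicates 1, 2 and 5) and 3 at 48 h (replicates 1, 2 and 3), which is 6 of the 18 cultures sequenced. The remaining cultures were 3 HET cultures at 24 h and 9 wild-type (WT) cultures, 3 at each of 12, 24 and 48 h. A tm1a allele is a knockout-first insertion, so every HET culture carried 1 disrupted and 1 normal copy of Dynlrb1, and both groups compared here shared this genotype. The labels give no age, sex or treatment, and they do not say which replicates came from separate animals. The p-values therefore measure the spread between cultures. For limma this spread was pooled over the groups of all 18 cultures, not only the 6 compared. A replicate number was not a known animal: number 5 occurs at 12 and 24 h and number 3 at 48 h.

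DRG neurons carry touch, temperature, itch and pain signals from the periphery to the spinal cord. Dissociation cuts both branches of their axon, so a culture starts from injured neurons that pass from an early stress response to a program of axon growth, while glia, fibroblasts and blood cells carried over from the ganglion share the dish. Dynlrb1 encodes one of the small subunits of dynein, which hauls cargo inward along axonal microtubules to the cell body.

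Levels below are the authors' normalized counts per culture, listed for replicates 1, 2 and 5 at 12 h and for replicates 1, 2 and 3 at 48 h. Changes are differences of mean log2(normalized count + 1), called log2 fold changes, with their standard error (SE). A gene was called where limma gave an adjusted p (Benjamini-Hochberg over 17198 genes) under 0.05. Normalized totals were 41509705 to 41509874 in all 18 cultures, so sequencing depth cannot be read from them. The defining markers of sensory neurons were abundant: in HET cultures the intermediate filament gene Prph stood at 1247 ± 176 FPKM (SD, n = 3) at 12 h and 1263 ± 67.7 FPKM (SD, n = 3) at 48 h. Avil, an actin regulator of sensory neurons, stood at 508 ± 47.9 and 502 ± 24.9 FPKM (SD, n = 3 each). Glial RNA was present too: Apoe, the lipid carrier gene of satellite glia, stood at 384 ± 144 FPKM at 12 h and 124 ± 41.4 FPKM at 48 h (SD, n = 3 each), and S100b, a gene of Schwann cells and satellite glia that some neurons also express, at 229 ± 55.4 and 144 ± 17.2 FPKM. The glial filament gene Gfap was near 0, at 0.10 ± 0.070 and 0.092 ± 0.055 FPKM.

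HET 48 h replicate 3 stood apart from the other 48 h cultures. On the line from the WT 12 h mean (position 0) to the WT 48 h mean (position 1) over all genes, the HET 12 h cultures lay at 0.0108, -0.076 and 0.0319. The HET 48 h cultures lay at 0.761 for replicate 1, 0.628 for replicate 2 and 0.273 for replicate 3. Replicate 3 was thus below all 3 HET 24 h cultures, which lay at 0.532, 0.295 and 0.422. Its expression correlated across genes at 0.9914 with the HET 24 h mean, at 0.9898 with the HET 12 h mean and at 0.9836 with the mean of the other 2 HET 48 h cultures. The mean position at 12 h was -0.0111 ± 0.0572 (SD, n = 3). At 48 h the mean was 0.554 ± 0.253 (SD, n = 3), and the 2 groups did not overlap. The two-sided exact permutation test gave p = 0.1, the smallest that 3 cultures against 3 allow. Counts over each gene list and the main gene results are therefore given with all 3 cultures and again without replicate 3.

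**Figure D1:**
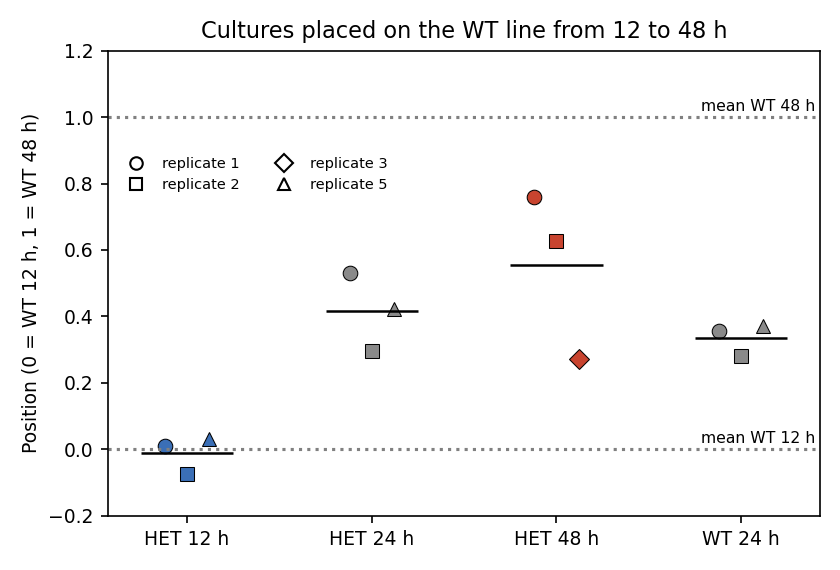
Position of single cultures (y axis, no unit) on the line from the WT 12 h mean, 0, to the WT 48 h mean, 1. Points are cultures, with the shape giving the replicate number, and bars are group means. HET 48 h replicate 3 sits at 0.273, below the 3 HET 24 h cultures, while replicates 1 and 2 sit at 0.761 and 0.628.

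Dynlrb1 itself did not pass the test with time. Its normalized counts were 3298, 4087 and 3414 at 12 h and 3314, 3482 and 3243 at 48 h. The ranges overlapped, and the log2 fold change was -0.10 (limma adjusted p = 0.611, SE 0.12).

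With all 3 cultures, 2442 of 17198 genes (14.2%) differed between 48 and 12 h: 1820 were higher at 48 h (10.6% of all genes) and 622 were lower (3.62%). Of the called genes, 487 rose and 235 fell at least 2-fold. Leaving out replicate 3 raised the count to 4886 genes (28.4%), 3406 higher (19.8%) and 1480 lower (8.61%), and 2360 of the 2442 genes were called again. Conversely, no gene (0) passed when HET 48 h replicate 1, HET 48 h replicate 2 or HET 12 h replicate 2 was left out, where limma gave 3729, 3881 and 4155 genes with an unadjusted p under 0.05. Without HET 12 h replicate 1 the count was 1123. A fit of only the 6 cultures compared called 0 genes (limma, 4469 with an unadjusted p under 0.05, lowest adjusted p 0.0983), the replicate block 5099 and culture weights 7342. The share of called genes that were higher was 74.5% on the normalized counts and 51.9% on a second set of deposited per-culture values whose totals differ between cultures. The median change of all genes was 0.10 on the first scale and 0.0075 on the second. The 3 cultures at 48 h all lay above the 3 at 12 h for 3718 genes (21.6%) and all below them for 1396 (8.12%).

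As a description, since these genes were called against the same 12 h cultures, the HET 24 h mean lay between the 12 and 48 h means for 1171 of the 1820 higher and 460 of the 622 lower genes, and at or beyond the 48 h mean for 583 and 148. Replicate 3 reached the nearer of the other 2 cultures at 48 h for 230 of the 3406 genes called higher without it and for 95 of the 1480 called lower. It stayed within the range of the 12 h cultures for 1042 and 470 of them. These genes were chosen by the other 2 cultures and the shared 12 h cultures, so the counts place replicate 3 and test nothing.

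Genes were ranked among those called, with a mean of at least 50, a call without replicate 3 and no overlap between the times. By this rule the most strongly raised was Uhrf1, which helps copy DNA methylation when DNA is replicated. 2810417H13Rik, described at the end of the Results, overlapped and is left out of the ranking. Uhrf1 stood at 19.5, 17.4 and 39.8 at 12 h and at 525, 308 and 91.8 at 48 h. All 48 h cultures were higher, as the rule requires, with replicate 3 the lowest of them. The log2 fold change was 3.31 (limma adjusted p = 0.0121, SE 0.50) and 4.02 without replicate 3. Npy, a neuropeptide that sensory neurons make after axon injury, went from 10.1, 4.07 and 22.1 to 228, 155 and 29.5, a log2 fold change of 3.24 (limma adjusted p = 0.0154, SE 0.72) and 4.12 without replicate 3. The next genes were the mitotic kinesin gene Kif18b (3.19), the extracellular matrix gene Coch (2.97), the collagen cross-linking gene Loxl3 (2.92) and Rrm2 (2.88), which encodes a subunit of the enzyme that makes deoxynucleotides. Without replicate 3 these values were 4.07 for Kif18b, 3.65 for Coch, 3.83 for Loxl3 and 3.60 for Rrm2. Col1a1 and the transcription factor gene Fezf2 followed at 2.85 each. In 7 of these 8 genes replicate 3 was the lowest 48 h culture, and Col1a1 was the exception.

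Among the 8 most strongly lowered genes by the same rule, 7 are markers of neutrophils or red cells, described further below. The exception was Mrgprb4, a receptor gene of a rare class of touch-sensing skin afferents. Mrgprb4 stood at 333, 881 and 295 at 12 h and at 4.50, 13.9 and 95.3 at 48 h. Replicate 3 was the highest at 48 h, and below every 12 h culture as the rule requires. On the log2 scale the change was -4.48 (limma adjusted p = 0.0121, SE 0.86) and -5.62 without replicate 3. Mrgpr genes form a family of similar copies, so reads may be shared among them.

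**Figure D2:**
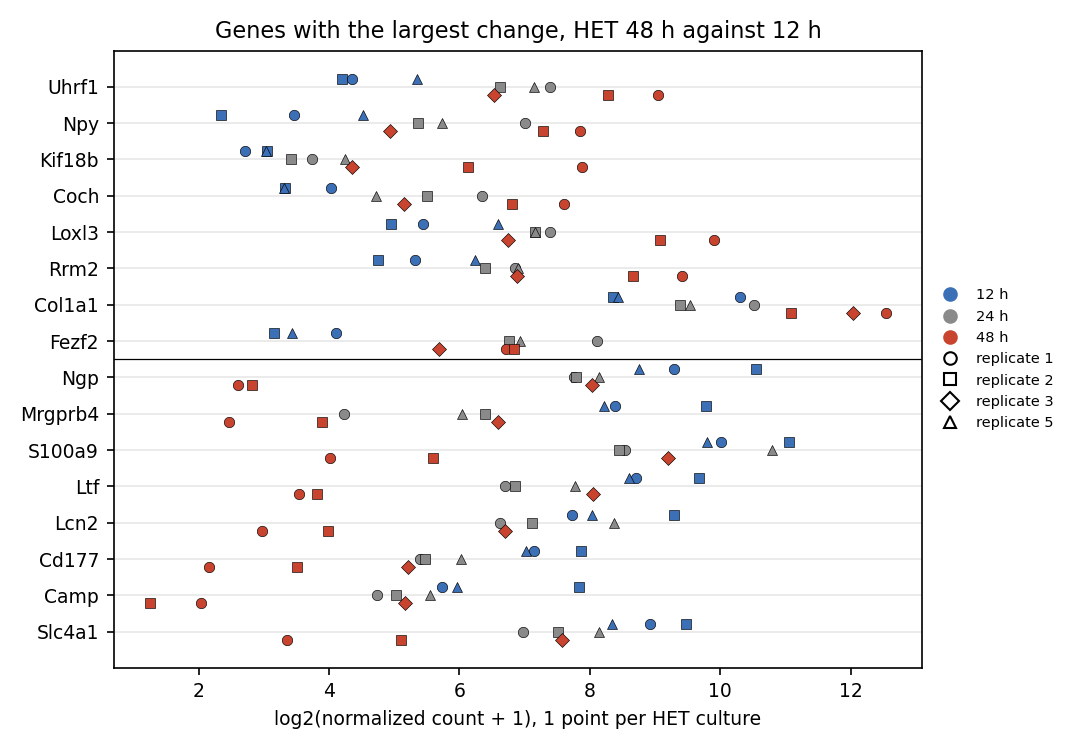
log2(normalized count + 1) in each HET culture of the 8 most raised and the 8 most lowered genes. These were ranked among called genes with a mean of at least 50, a call without replicate 3 and no overlap between the times. Color gives the time and shape the replicate number. Replicate 3 at 48 h (diamond) lies between the 12 h cultures and the other 48 h cultures for most genes, for example 91.8 against 525 and 308 for Uhrf1.

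Genes of DNA replication and mitosis formed the group with the largest share of raised genes. Of 50 measured, 34 were called higher and 0 lower (all genes: 10.6% higher and 3.62% lower), with a median log2 fold change of 1.07 against 0.10 for all genes; limma gave 43 higher and 0 lower without replicate 3, with a median of 1.44. Among subunit genes of the helicase that is loaded onto DNA before replication, Mcm5 went from 132, 158 and 198 to 699, 546 and 268. Every 48 h culture was above every 12 h culture. On the log2 scale the change was 1.54 (limma adjusted p = 0.0121, SE 0.27), and Mcm6 and Mcm3 changed by 1.13 and 1.25. Cdc6, which recruits that helicase, changed by 2.25, and by 2.84 without replicate 3.

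Among genes of deoxynucleotide synthesis and of the entry into S phase, some were called and others not. Rrm2 went from 39.1, 25.9 and 74.4 to 677, 405 and 116, and the thymidylate synthase gene Tyms changed by 2.02. Ccnd1, the cyclin D gene that drives the exit from G1, went from 558, 567 and 837 to 2817, 3323 and 739. Here replicate 3 lay inside the 12 h range, and the log2 fold change of Ccnd1 was 1.57 (limma adjusted p = 0.0300, SE 0.44) with it and 2.25 without it. E2f1, which encodes a transcription factor of S-phase genes, did not pass: it stood at 763, 808 and 606 at 12 h and at 754, 644 and 496 at 48 h, a log2 fold change of -0.21 (limma adjusted p = 0.388). Ccne1, Cdk2, E2f2 and Tk1 did not pass either with all 3 cultures.

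Members that act in mitosis included called genes at low levels, while Ccnb1, Ccnb2, Plk1, Aurka, Bub1b, Kif11 and Kif23 did not pass with all 3 cultures. Cdk1, the kinase that starts mitosis, went from 25.1, 19.1 and 28.9 to 189, 121 and 40.0, a log2 fold change of 1.97 (limma adjusted p = 0.0159, SE 0.45) and 2.60 without replicate 3. Top2a, which untangles chromosomes, went from 27.0, 46.9 and 89.5 to 871, 460 and 105. Top2a did not overlap between the times, at a log2 fold change of 2.82 (limma adjusted p = 0.0158, SE 0.64) and 3.68 without replicate 3. Mki67, the proliferation marker, went from 145, 213 and 339 to 1225, 921 and 208, with replicate 3 inside the 12 h range and a log2 fold change of 1.49 (limma adjusted p = 0.0430, SE 0.47). Without replicate 3 the change of Mki67 was 2.27, and on the second set of deposited values it did not pass (limma adjusted p = 0.0615). Per length these genes stayed low: Top2a stood at 2.21 ± 1.77 FPKM (SD, n = 3) and Mki67 at 1.88 ± 1.25 FPKM (SD, n = 3) at 48 h, against 1263 FPKM for the neuronal gene Prph. Inhibitors of the cycle were called higher for 3 of 12 and lower for 0 (4 and 1 without replicate 3; all genes, 10.6% and 3.62%, and 19.8% and 8.61%): Cdkn2c, a CDK inhibitor gene (0.73), the pocket protein gene Rbl2 (0.56) and Ccng1, a p53 target gene (0.40). On the second set of values only Rbl2 passed (1 of 12), and limma gave adjusted p of 0.0555 for Cdkn2c and 0.103 for Ccng1.

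The promoters of the genes on this list, called or not, were read for letters that E2F factors are known to bind. The 4 E2F spellings searched on both strands were TTTCCCGC, TTTCGCGC, TTTGCCGC and TTTGGCGC, and matches may overlap. In the 250 bases before the start, 6 of the 41 genes of this list with a RefSeq promoter held at least 1 match (14.6%), against 377 of 12599 tested genes (2.99%); of the 27 called higher, 5 did. The spelling TTTGAA, the core of the cell cycle homology element of late cell cycle genes, was in 11 of 41 (26.8%) against 10.9% of all, and in 9 of the 27 called higher. A match is a description of the letters in the window and not a site in use. Mcm5, Mcm6 and Cdk1 are printed because they held matches and rose, and Uhrf1 because it led the ranking of raised genes and held none. Sequences run 5′ to 3′ toward the start, from RefSeq on GRCm38.p6: Mcm5 at chr8:75109259-75109508 (plus strand), Mcm6 at chr1:128359706-128359955 (minus strand), Cdk1 at chr10:69352913-69353162 (minus strand) and Uhrf1 at chr17:56303087-56303336 (plus strand). Capitals mark matches. The run in Mcm5 and the first run in Mcm6 are each 2 overlapping E2F matches, and in Cdk1 the first run is an E2F spelling and the others are TTTGAA.
Mcm5: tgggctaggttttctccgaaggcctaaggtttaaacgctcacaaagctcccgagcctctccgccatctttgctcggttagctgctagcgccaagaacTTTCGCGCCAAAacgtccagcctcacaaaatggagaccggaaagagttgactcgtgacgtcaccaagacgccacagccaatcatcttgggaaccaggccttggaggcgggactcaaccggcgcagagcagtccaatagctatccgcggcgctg
Mcm6: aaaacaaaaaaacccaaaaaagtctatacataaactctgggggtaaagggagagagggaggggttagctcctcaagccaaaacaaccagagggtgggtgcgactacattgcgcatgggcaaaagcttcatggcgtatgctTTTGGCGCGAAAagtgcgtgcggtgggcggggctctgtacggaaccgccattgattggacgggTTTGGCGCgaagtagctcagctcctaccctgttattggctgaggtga
Cdk1: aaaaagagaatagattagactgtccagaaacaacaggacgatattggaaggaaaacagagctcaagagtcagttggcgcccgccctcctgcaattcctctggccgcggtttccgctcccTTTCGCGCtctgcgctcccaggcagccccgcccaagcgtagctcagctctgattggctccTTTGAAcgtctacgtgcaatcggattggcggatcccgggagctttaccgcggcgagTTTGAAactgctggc
Uhrf1: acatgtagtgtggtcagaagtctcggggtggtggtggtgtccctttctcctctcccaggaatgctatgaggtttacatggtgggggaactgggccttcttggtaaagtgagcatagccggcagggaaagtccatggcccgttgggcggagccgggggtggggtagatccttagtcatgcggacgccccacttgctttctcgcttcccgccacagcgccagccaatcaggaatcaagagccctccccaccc

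Some fibroblast and extracellular matrix genes were higher at 48 h. Of 31 measured, 9 were called higher and 0 lower with all cultures (all genes, 10.6% and 3.62%) and 22 did not pass, against 18 higher and 0 lower without replicate 3 (all genes, 19.8% and 8.61%); the median log2 fold change was 0.70. Col1a1, a chain of fibrillar collagen, went from 1254, 327 and 346 to 5925, 2163 and 4210. All 48 h cultures lay above all 12 h cultures, and replicate 3 was the second highest, unlike in most raised genes. The log2 fold change of Col1a1 was 2.85 (limma adjusted p = 0.0135, SE 0.59). Its partner chain Col1a2 went from 1596, 829 and 1020 to 10001, 7293 and 2342, a log2 fold change of 2.33 (limma adjusted p = 0.0121, SE 0.43) and 2.95 without replicate 3. Fbn1, the main gene of elastic microfibrils, changed by 2.01, and Col3a1 by 1.89. Per length, Col1a1 stood at 3.29 ± 2.72 FPKM (SD, n = 3) at 12 h and 21.0 ± 9.66 FPKM (SD, n = 3) at 48 h.

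Summed over the list, fibroblast and matrix genes reached 84866 to 111709 at 12 h and 180273, 164904 and 102209 at 48 h, so replicate 3 was inside the 12 h range. The replication list summed to 12952 to 16385 at 12 h and to 32530, 29250 and 17843 at 48 h. Both sums were high in the same 2 cultures, and the sensory neuron identity list summed to 467384 to 529262 at 12 h and 453096 to 465993 at 48 h. In bulk RNA a change in the number of cells of a type and a change in RNA per cell cannot be told apart. The part of fibroblasts and other dividing cells in the rise of the replication genes was not tested.

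**Figure D3:**
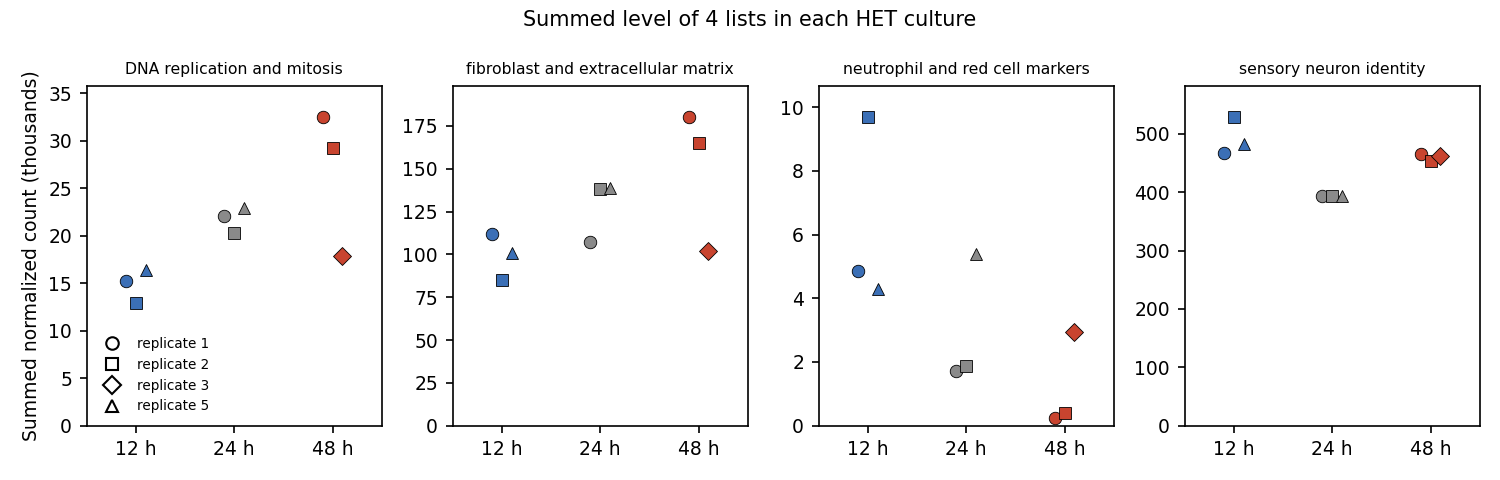
Summed normalized counts (y axis, in units of 1000) of 4 gene lists in each HET culture at 12, 24 and 48 h, with shape giving the replicate number. The replication list reaches 32530 and 29250 in replicates 1 and 2 at 48 h and 17843 in replicate 3. The sensory neuron list lies at 453096 to 465993 at 48 h, below every 12 h culture.

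Of 23 transcription factor genes linked to regeneration, 0 were called higher and 8 lower, and 15 did not pass (all genes, 10.6% higher and 3.62% lower). Without replicate 3 the counts were 1 and 13 (all genes, 19.8% and 8.61%). With all cultures the list had a median log2 fold change of -0.31. Jun, an AP-1 subunit needed for axon regrowth, went from 22064, 20901 and 20896 to 14509, 14265 and 18534. The groups did not overlap, at a log2 fold change of -0.44 (limma adjusted p = 0.0171, SE 0.10). Atf3, the classic marker of an injured sensory neuron, stood at 33865, 29141 and 30112 at 12 h and at 14786, 19960 and 35909 at 48 h. Replicate 3 was above every 12 h culture, so Atf3 did not pass with all 3 cultures (-0.50, limma adjusted p = 0.116, SE 0.21) and did without replicate 3 (-0.85, limma adjusted p = 5.54e-04). Cebpd and Cebpb, factors of the acute-phase response, fell by 1.15 and 0.87. Stat3 stood at 29932, 30256 and 30838 and then at 26214, 26337 and 30564, and Sox11 changed by -0.08; neither passed.

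Immediate early genes, which neurons switch on within minutes of a stimulus, were called lower in 4 of 21 cases and higher in 0. Of all genes, 3.62% were called lower and 10.6% higher. The list counts were 6 and 0 without replicate 3 (all genes, 8.61% and 19.8%). Fos went from 5362, 8634 and 6435 at 12 h to 1106, 1831 and 3620 at 48 h, with no overlap. On the log2 scale the change was -1.78 (limma adjusted p = 0.0124, SE 0.36) and -2.23 without replicate 3. Fosb fell by 2.06 (SE 0.36), the nuclear receptor gene Nr4a1 by 1.01 (SE 0.29) and Fosl1 by 0.88. Egr1, at a log2 fold change of -0.79, did not pass.

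Of 40 regeneration effectors and growth-cone genes, 12 were called higher and 1 lower, and 27 did not pass (all genes, 10.6% higher and 3.62% lower), with a median of 0.27. Without replicate 3 the counts were 15 and 5 (all genes, 19.8% and 8.61%). Sprr1a, a cornified-envelope protein made by injured neurons, went from 412, 70.8 and 327 to 1265, 1386 and 528. All 48 h cultures were above all 12 h cultures, and the 24 h cultures were higher still at 4371, 1463 and 1959. The log2 fold change was 2.19 (limma adjusted p = 0.0302, SE 0.62). Ecel1, a neuronal peptidase gene, went from 1159, 411 and 869 to 3643, 4793 and 1726 (2.06, limma adjusted p = 0.0155, SE 0.46). Inhba, which encodes an activin subunit, changed by 1.64 and the protease inhibitor gene Timp1 by 1.53. Itga7, a laminin receptor gene, went from 10524, 6926 and 9548 to 18992, 23843 and 12349, with no overlap. Gap43, the growth-cone protein gene, stood at 15304, 13178 and 13192 and then at 13860, 16089 and 13080, and did not pass (0.04, SE 0.13). The 1 lowered member was Dpysl2, a collapsin response mediator, at -0.30.

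The promoters of these 2 lists were read for the AP-1 spelling TGANTCA on both strands. It was in 1 of 20 transcription factor promoters (5%) and 3 of 25 effector promoters (12%), against 4.98% of the 12599. Sprr1a is printed because it was the most raised effector and held the spelling at 2 places, in capitals. The window is chr3:92485882-92486131 (GRCm38.p6, minus strand, RefSeq), 5′ to 3′ toward the start.
Sprr1a: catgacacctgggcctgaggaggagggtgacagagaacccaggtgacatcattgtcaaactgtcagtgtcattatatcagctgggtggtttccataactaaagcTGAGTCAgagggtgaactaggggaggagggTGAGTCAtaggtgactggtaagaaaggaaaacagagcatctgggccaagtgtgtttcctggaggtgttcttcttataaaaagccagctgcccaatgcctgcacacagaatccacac

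Secreted signals of injured neurons were called higher in 5 of 24 and lower in 2 (all genes, 10.6% and 3.62%). Leaving out replicate 3 gave 9 and 4 (all genes, 19.8% and 8.61%). Beside Npy, the cytokine gene Il11 went from 133, 114 and 167 to 1527, 865 and 327, a log2 fold change of 2.46 (limma adjusted p = 0.0121, SE 0.44) and 3.07 without replicate 3. Nts, encoding neurotensin, went from 1649, 1289 and 1931 to 5001, 6671 and 2947, a log2 fold change of 1.53 (limma adjusted p = 0.0121, SE 0.28). Neither gene overlapped between the times. Bdnf, the neurotrophin gene, changed by 0.52 (lost on the second set of values, limma adjusted p = 0.0693) and Lif, a cytokine gene of the injury response, by 0.88. Il6, another such cytokine gene, went the other way, from 176, 196 and 174 to 37.9, 48.3 and 63.1 (-1.88, limma adjusted p = 0.0150, SE 0.40). Gal, encoding galanin, did not pass (-0.16, SE 0.25).

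Of 20 markers of non-peptidergic nociceptors and itch neurons, 9 were called lower and 0 higher (all genes, 3.62% and 10.6%). Their median was -0.59, and the counts were 11 and 0 without replicate 3 (all genes, 8.61% and 19.8%). Mrgprd, the receptor gene that defines the largest non-peptidergic class, went from 5544, 13025 and 7854 to 618, 839 and 6163. Replicate 3 lay inside the 12 h range, far above the other 48 h cultures. The log2 fold change was -2.49 (limma adjusted p = 0.0268, SE 0.68) with it and -3.52 without it. Sst, the somatostatin gene of an itch class, went from 216, 520 and 258 to 35.3, 57.7 and 208, a log2 fold change of -2.01 (limma adjusted p = 0.0178, SE 0.48) and -2.74 without replicate 3. Mrgprb5, Mrgpra3 and the interleukin receptor gene Il31ra fell by 3.21, 2.88 and 2.02, and by 4.21, 3.79 and 2.90 without replicate 3. P2rx3, the ATP receptor gene of the same neurons, did not pass (0.15, SE 0.13), at 17632, 16704 and 19587 and then 20135, 18650 and 21158.

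Peptidergic and thermoreceptor markers were called in both directions, 3 of 16 higher and 4 lower (all genes, 10.6% and 3.62%). Leaving out replicate 3 gave 4 and 7 (all genes, 19.8% and 8.61%). Tac1, the substance P gene, went from 9110, 14934 and 11990 to 3968, 4648 and 11216, with replicate 3 inside the 12 h range (-0.99, limma adjusted p = 0.0473, SE 0.32). Calca, the gene of the peptide CGRP, went from 42058, 55269 and 45687 to 21924, 29150 and 43179 (-0.65, limma adjusted p = 0.0390, SE 0.20). Here too replicate 3 was within the range of the 12 h cultures. The stem cell factor receptor gene Kit and the cold channel gene Trpm8 fell by 0.68 and 0.62. The raised members were the adrenergic receptor gene Adra2a (1.49), the peptide gene Cartpt (1.05) and the artemin receptor gene Gfra3 (0.71). Trpv1, the capsaicin receptor gene, did not pass (-0.14, SE 0.16).

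Of the markers of touch and position-sense neurons, 2 of 23 were called higher and 5 lower (all genes, 10.6% and 3.62%). The counts were 3 and 4 without replicate 3 (all genes, 19.8% and 8.61%). Etv1, a proprioceptor transcription factor gene, went from 925, 1277 and 846 to 354, 343 and 703 (-1.18, limma adjusted p = 0.0233, SE 0.31). The vesicular glutamate transporter gene Slc17a8 fell by 0.78, and Ndnf by 0.93 with all cultures (limma adjusted p = 0.0492) and by 0.94 without replicate 3, where it no longer passed (limma adjusted p = 0.0528). Spp1, the osteopontin gene, changed by 1.26 and Whrn, a scaffold gene, by 1.09. Neither passed on the second set of values (limma adjusted p = 0.0591 and 0.0766) or under quantile normalization, where 0 of 23 were called higher.

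Genes of general sensory identity were spread around 0, with a median of -0.016. Among the 17, 3 were called higher and 3 lower (all genes, 10.6% and 3.62%). These counts became 4 and 3 without replicate 3 (all genes, 19.8% and 8.61%). Isl1, a homeodomain factor of sensory neurons, went from 2580, 2782 and 2991 to 7338, 7984 and 3275. The times did not overlap, at a log2 fold change of 1.05 (limma adjusted p = 0.0158, SE 0.24) and 1.46 without replicate 3. The neuronal RNA-binding protein gene Elavl4 changed by 0.89, from 6953, 7558 and 7365 to 19014, 17634 and 7333, with replicate 3 inside the 12 h range. Snap25, a vesicle fusion protein gene, fell by 0.59.

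Of 38 voltage-gated sodium and potassium channel genes, which shape the action potential, 14 were called lower and 1 higher, and 23 did not pass. Of all genes, 3.62% were called lower and 10.6% higher. The list had a median of -0.41, with 16 lower and 1 higher without replicate 3 (all genes, 8.61% and 19.8%). Scn11a, a sodium channel gene of nociceptors, went from 33053, 49718 and 41614 to 16764, 14839 and 32308. Every 48 h culture was below every 12 h culture, at a log2 fold change of -1.03 (limma adjusted p = 0.0236, SE 0.27). Kcns1, a potassium channel modifier gene, fell by 1.21, and Scn1a by 0.96. The raised gene was Scn2a1, a sodium channel gene of axons (0.62, limma adjusted p = 0.0423), which missed the threshold on the second set of deposited values (limma adjusted p = 0.0867). Among calcium channel genes, 1 of 15 was called higher, Cacna2d2 at 0.70, and 1 lower, Cacnb4 at -0.53 (all genes, 10.6% and 3.62%). Leaving out replicate 3 gave 4 and 1 (all genes, 19.8% and 8.61%).

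Synaptic release genes were called lower in 6 of 30 and higher in 0 (all genes, 3.62% and 10.6%). The counts were 7 and 1 without replicate 3 (all genes, 8.61% and 19.8%). Syt2, a calcium sensor gene of fast release, went from 6481, 6025 and 3971 to 2440, 2938 and 3311, with no overlap (-0.90, limma adjusted p = 0.0121, SE 0.17). Cplx2, the complexin gene, fell by 0.86 and Sv2b, a vesicle glycoprotein gene, by 0.81.

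Transcripts of neutrophils and red cells had the lowest median of the 27 lists. Of 17 measured, 10 were called lower and 0 higher (all genes, 3.62% and 10.6%), with a median of -3.08. Leaving out replicate 3 gave 14 and 0 (all genes, 8.61% and 19.8%). Ngp, a neutrophil granule gene, went from 623, 1498 and 430 to 5.09, 6.09 and 262. Replicate 3 stood far above the other 48 h cultures, below every 12 h culture. The log2 fold change was -5.04 (limma adjusted p = 0.0255, SE 1.35) with it and -6.81 without it. S100a9 and Ltf, also of neutrophils, moved from -4.02 to -5.48 and from -3.86 to -5.32 when replicate 3 was left out, and S100a9 did not pass on the second set of values (limma adjusted p = 0.0509). Slc4a1, the anion exchanger gene of red cells, went from 484, 711 and 324 to 9.27, 33.3 and 190 (-3.57, and -4.68 without replicate 3). Summed over the list, the level was 4277 to 9695 at 12 h, and 249, 402 and 2945 at 48 h in replicates 1, 2 and 3.

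Glial lists changed in a mixed way. Of 22 markers of the Schwann lineage and satellite glia, 1 was called higher and 7 lower (all genes, 10.6% and 3.62%). The raised gene was Gfra3, which also stands among the peptidergic markers above. Leaving out replicate 3 gave 5 and 7 (all genes, 19.8% and 8.61%). Apoe went from 12649, 27570 and 19624 to 4035, 6997 and 8213 (-1.63, limma adjusted p = 0.0178, SE 0.39), with no overlap. The glutamate transporter gene Slc1a3 fell by 0.99. The lineage factor gene Sox10 did not pass, at 1034, 1271 and 1422 and then 1473, 2294 and 871. Of 21 myelin genes, 1 was called higher, Pmp2, and 1 lower, and 4 and 3 without replicate 3, against the same shares of all genes. Pmp2 stood at 38.8, 22.3 and 70.5 and then at 387, 474 and 52.6, with replicate 3 inside the 12 h range, a log2 fold change of 2.40 (SE 0.64) and 3.41 without replicate 3. The summed Schwann and satellite list was 87036 to 108250 at 12 h and 60070, 72539 and 69471 at 48 h, so replicate 3 lay with the other 48 h cultures there. Within that sum Apoe had a mean of 19948 at 12 h and 6415 at 48 h. Ngfr, also on the list of neuronal death and survival, had means of 31534 and 19407. Summed myelin genes overlapped, at 36944 to 40747 and 34573 to 38945.

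Of 21 macrophage markers 1 was called higher, the lysosomal gene Cd68 (1.03, SE 0.30), and 2 lower (all genes, 10.6% and 3.62%). The lowered genes were the antigen presentation gene Cd74 (-1.59) and Lyve1 (-1.01). The counts were 1 and 4 without replicate 3 (all genes, 19.8% and 8.61%). The macrophage markers summed to 4085 to 5732 at 12 h and 4436 to 5974 at 48 h. Of 20 endothelial and mural markers, Selp and Cldn5 were called lower (-1.57 and -1.56) and 0 higher, with the same counts without replicate 3. These stand against the same shares of all genes. The endothelial and mural sum was 18252 to 28146 and then 19189 to 22446. No gene of the whole table was listed at 0 in any culture, so a value above 0 does not show that a marker was detected. The part of other cell types in the changes of the neuronal lists was not tested.

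**Figure D4:**
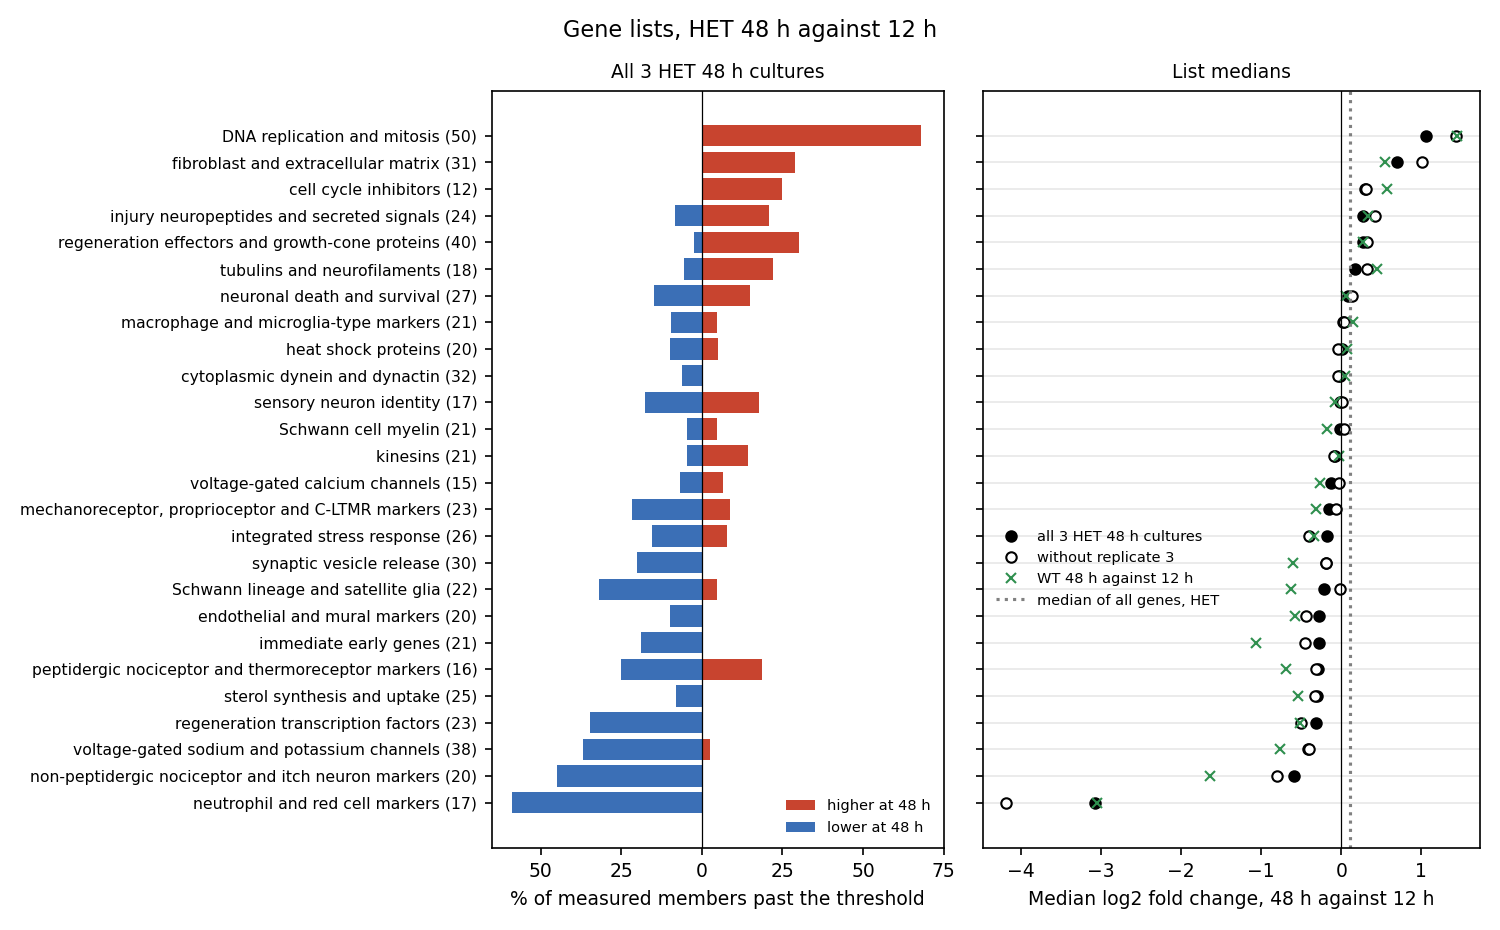
Left, share of measured members (x axis, %) called higher (red) or lower (blue) at 48 h for 26 gene lists, with the number measured in brackets. Right, list medians of the log2 fold change with all HET 48 h cultures (filled), without replicate 3 (open) and in WT (crosses), where the dotted line is the median of all genes in HET, 0.10. The replication list has the highest median, 1.07, and the neutrophil and red cell list the lowest, -3.08.

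Integrated stress response genes were called higher in 2 of 26 and lower in 4 (all genes, 10.6% and 3.62%). The counts were 3 and 12 without replicate 3 (all genes, 19.8% and 8.61%). Ppp1r15a, which feeds back on this pathway, went from 17014, 16770 and 15969 to 5753, 6658 and 17376. Replicate 3 was above every 12 h culture and the other 48 h cultures far below them, at a log2 fold change of -0.93 (limma adjusted p = 0.0360, SE 0.27) and -1.42 without replicate 3. Sesn2, a stress-induced regulator of growth signaling, went from 3626, 3397 and 3285 to 1260, 1348 and 3452, with replicate 3 inside the 12 h range. Ddit3, the gene of the factor CHOP, stood at 7863, 7456 and 7653 and then at 4278, 5629 and 9545. It did not pass (-0.32, limma adjusted p = 0.322) and did without replicate 3 (-0.64, limma adjusted p = 0.0114). Atf5 changed by 0.72, and Slc7a11, the cystine transporter gene, fell by 1.08.

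Heat shock genes were called higher in 1 of 20, Hspb1 (0.43), and lower in 2, Hspa1a (-0.93) and Hspa1b (-0.77). All genes gave 10.6% and 3.62%. Without replicate 3 the counts were 3 and 3 (all genes, 19.8% and 8.61%). Hspb1 did not pass on the second set of values (limma adjusted p = 0.0861). Hspa1a and Hspa1b are nearly identical, so reads may be split between them. Of 27 genes of neuronal death and survival, 4 were called higher and 4 lower (all genes, 10.6% and 3.62%), against 8 and 5 without replicate 3 (all genes, 19.8% and 8.61%). Hrk, a pro-apoptotic gene of neurons, went from 90.3, 69.1 and 57.8 to 258, 234 and 116 (1.41, limma adjusted p = 0.0235, SE 0.37), and Pmaip1, of the same BH3-only family, changed by 1.29. Neither overlapped between the times. Bbc3, a further BH3-only gene, stood at 1939, 2145 and 2027 and then at 920, 978 and 2112 (-0.72, limma adjusted p = 0.0459, SE 0.23). Its replicate 3 lay within the 12 h range. Ngfr, the low-affinity neurotrophin receptor gene, fell by 0.70.

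Of 18 tubulin and neurofilament genes, 4 were called higher and 1 lower (all genes, 10.6% and 3.62%). The counts were 7 and 2 without replicate 3 (all genes, 19.8% and 8.61%). Tuba1a, the alpha-tubulin gene of growing axons, went from 55880, 52538 and 55319 to 97794, 87710 and 64933. The times did not overlap, and the log2 fold change was 0.59 (limma adjusted p = 0.0214, SE 0.15). Tubb6 changed by 1.24 and Tuba1c by 0.82. Tubulin genes are similar in sequence, so reads may be shared. Nefh, the heavy neurofilament gene, fell by 0.63 (SE 0.20), from 88388, 83988 and 55815 to 44389, 48631 and 51618.

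A list of 32 genes, Dynlrb1 among them, held the dynein motor and dynactin with adaptors and regulators such as Bicd2 and Pafah1b1. Of these, limma called 0 higher and 2 lower and 30 did not pass (all genes, 10.6% higher and 3.62% lower). Without replicate 3 the counts were 3 and 7 (all genes, 19.8% and 8.61%). The lowered genes were the intermediate chain gene Dync1i1 (-0.46, SE 0.13) and the dynactin gene Dctn1 (-0.35, SE 0.09). The heavy chain gene Dync1h1 stood at 100772, 73363 and 106058 and then at 109170, 124874 and 89964, which overlapped. The summed list was 400072 to 419643 at 12 h and 392620 to 408109 at 48 h. Of 21 kinesin genes, 3 were called higher and 1 lower (all genes, 10.6% and 3.62%). Kif26b changed by 1.08 (1.68 without replicate 3) and Kif1c by 0.85. The counts were 4 and 2 without replicate 3 (all genes, 19.8% and 8.61%) and 1 and 1 on the second set of deposited values. Of 25 genes of sterol synthesis and uptake, 2 were called lower, among them Tm7sf2 (-0.74), and 0 higher (all genes, 3.62% and 10.6%). The second set gave 6 and 0. Leaving out replicate 3 gave 7 and 0 (all genes, 8.61% and 19.8%).

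The change in HET followed that in WT in direction. WT cultures, compared between the same times in the same model, had 8098 called genes (47.1%), 5152 higher (30.0%) and 2946 lower (17.1%). Of the 1820 genes higher in HET, 1815 had a positive change in WT and 1737 were called there; of the 622 lower, 621 had a negative change and 598 were called. None was called in opposite directions. The HET and WT changes, which share no culture, correlated at r = 0.84 across genes, and at 0.85 without replicate 3; genes are not independent replicates.

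No gene (0 of 17198) passed limma for a difference between the HET and the WT change, with replicate 3 or without it. The unadjusted p was under 0.05 for 1534 genes with replicate 3 and for 1024 without it. Replication genes had a median of 1.07 in HET and 1.45 in WT, and 1.44 in HET without replicate 3. The median difference between the genotypes' changes was -0.34 for this list with replicate 3 and -0.015 without it. Immediate early genes had medians of -0.28 in HET and -1.07 in WT, with a median difference of 0.64 with replicate 3 and 0.34 without it. Non-peptidergic and itch markers had medians of -0.59 and -1.64, with a difference of 0.48 and 0.25. For these lists the difference between genotypes was thus smaller without replicate 3. Other lists went the other way when replicate 3 was left out. The median difference rose from 0.25 to 0.45 for the Schwann lineage and satellite glia. It rose from 0.092 to 0.32 for fibroblast and matrix genes.

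**Figure D5:**
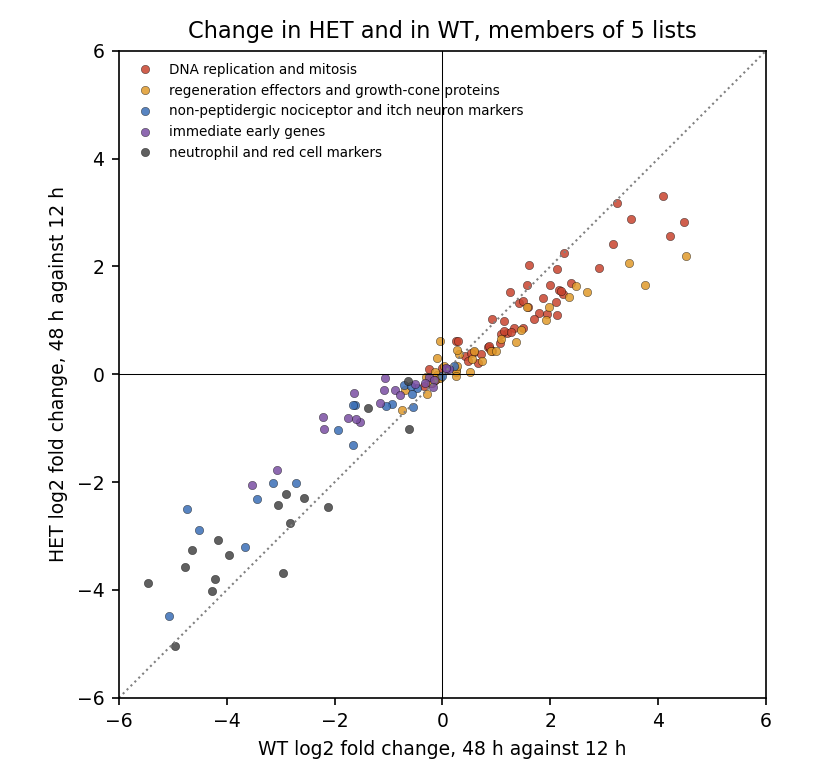
Log2 fold change of 48 h against 12 h in HET (y axis) against WT (x axis), 1 point per gene of 5 lists, with all cultures. The dotted line marks equal change. Replication genes lie at the upper right and neutrophil and red cell markers at the lower left; no gene passed the test of a difference between genotypes.

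The 3 genes with the lowest p for that difference show its scale. Gm15441, a noncoding RNA gene antisense to a coding gene and so uncertain without strand, stood at 11.8, 13.2 and 12.7 at 12 h and at 5.62, 6.84 and 4.66 at 48 h in HET, a log2 fold change of -1.03 against 1.71 in WT. The neural transcription factor gene Prdm8 changed by 0.07 in HET, at 540, 622 and 493 and then 593, 560 and 576, and by -0.63 in WT. Jph4, which ties the endoplasmic reticulum to the membrane of neurons, fell by 0.66 in HET and by 1.56 in WT. The limma adjusted p of the difference was 0.548 for each, so none is shown to depend on genotype.

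Called genes whose change moved most without replicate 3 were Ngp, S100a9, Ltf, 2810417H13Rik and Thbs2. Thbs2, a matrix thrombospondin gene, stood at 326, 196 and 238 at 12 h and at 5605, 2538 and 295 at 48 h. Replicate 3 fell inside the 12 h range, and the log2 fold change was 2.70 (limma adjusted p = 0.0332, SE 0.78) with it and 3.92 without it. 2810417H13Rik, a replication-associated gene, stood at 1.36, 9.16 and 16.6 and then at 278, 95.9 and 9.97, a log2 fold change of 3.15 with replicate 3 and 4.46 without it.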

How the data were processed

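RNA from 18 cultures of mouse DRG neurons was analysed from 1 deposited table of 17198 genes, 16529 with an Ensembl ID. Per the submitters' processing notes, CASAVA 1.8.2, edgeR and the mm10 build were used; the aligner, counter, annotation and strandedness are not given in the sources used here. Per the file headers, the authors deposited normalized counts, a signal with no whole numbers, a second per-culture signal on another scale, FPKM values, log2 fold changes, p-values with adjusted p-values, and a rank score. The normalized counts were used. FPKM served only to compare levels between genes, the second signal as an alternative, and the authors' p-values only for 1 comparison of counts. The rank score deposited by the authors was not used. No per-culture column was unmapped (0). Logarithms of the values spanned 15 of 17 possible dimensions, so 2 directions among cultures had been removed, which overstates the residual degrees of freedom.

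Values were tested as log2(normalized count + 1), which understates changes of low genes, with limma 3.58.1 in R 4.3.3: 1 coefficient per group over all 18 cultures, the prior variance following the mean (degrees of freedom: residual 12, prior 5.0), Benjamini-Hochberg adjustment over all genes and a threshold of 0.05. A minimum mean of 1 removed 0 genes. The procedure was tested on simulated data. Tables were handled with Python 3.11.15 and pandas 2.3.3, and the exact permutation test was enumerated in Python with numpy 2.4.6.

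The comparison, the 27 gene lists (632 of 648 entries measured) and the naming rule were chosen with earlier results of these data known, so list counts are descriptions. Named were Dynlrb1; the 8 highest and 8 lowest changes among called genes with a mean of at least 50, no overlap and a call without replicate 3; up to 3 called members per list and direction with a mean of at least 20, or the 2 most abundant where none was called; the 3 lowest p for the genotype difference; and the 5 called genes that moved most without replicate 3. Other genes of the lists are named for their known role, chosen after their values were seen. Some genes that meet the rule are not reported here. Alternatives were another pseudocount, filter, scaling, the second signal, culture weights, the replicate block, the removed directions, only the 6 cultures, and each culture left out.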

Additional observations from a re-analysis of the deposited data

How the results depend on the processing

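The number of genes called between 48 and 12 h in HET, 2442, depended on the cultures and on the model, while all 2442 kept their sign under every alternative. Leaving out 1 culture at a time gave 0 to 4886 genes, 0 without HET 48 h replicate 1 or 2 or HET 12 h replicate 2. A fit of only the 6 cultures compared gave 0 (limma, 4469 with an unadjusted p under 0.05, lowest adjusted p 0.0983). Quantile normalization gave 1596, the second set of deposited values 1925, the removed directions as covariates 2230, and culture weights 7342, where replicate 3 had the lowest weight of the 18, 0.251. Fits added after the data were seen, without replicate 3, gave 5165 with the replicate block and 4526 with the removed directions. The replicate block gave 5099 genes, 3531 higher and 1568 lower. The labels do not say whether equal numbers pair the cultures. Only 1 and 2 are shared between 12 and 48 h, with deviations correlating at 0.171 and -0.0808. Pairs of unlike number gave -0.204 to 0.233, so 2 pairs cannot decide whether the numbers pair the cultures. Cause was not tested in any of these. Of the 105 named genes, 99 lost their call in the fits with 0 calls, 36 without HET 12 h replicate 1, 21 under quantile normalization, 20 without HET 12 h replicate 5, 10 with the second set of values, 8 with the removed directions, 1 with culture weights, and Ndnf alone without replicate 3; none lost it under the block. Among these 105, only Xist, which was not called, changed sign: its change of 2.05 ranged from -0.10 (without HET 12 h replicate 5) to 3.73 with 1 culture left out, and was -0.013 with the block without replicate 3. No gene (0) passed the genotype difference in any fit; with the block, limma gave 2152 unadjusted p under 0.05. The authors' deposited table held 2659 genes with an adjusted p under 0.05, of which 2159 were called here. Low genes are limited by unknown depth, and 3 cultures a group cannot give an exact p under 0.1.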

Other observations

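Xist, the RNA that coats the inactive X chromosome of female cells, varied far more between cultures than with time. In HET its normalized count was 12850, 2381 and 62.5 at 12 h in replicates 1, 2 and 5, and 18268, 1056 and 90.0 at 24 h in the same order. At 48 h it was 11982 in replicate 1, 2450 in replicate 2 and 4680 in replicate 3. The log2 fold change of 48 h against 12 h was 2.05 with an SE of 2.78 (limma adjusted p = 0.644). Its antisense partner Tsix, whose reads cannot be told apart without strand, stood at 7.62, 3.33 and 2.26 at 12 h and 5.73, 4.49 and 16.6 at 48 h, the highest in replicate 3. Replicates 1, 2 and 5 thus kept their order in Xist at 12 and 24 h, and replicates 1 and 2 kept theirs at 48 h as well. The part of these differences in other results was not tested.

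Blood cell transcripts also differed between cultures of 1 time. The neutrophil and red cell list summed to 5400 in HET 24 h replicate 5 against 1722 and 1879 in replicates 1 and 2, a level within the range of the 12 h cultures, 4277 to 9695. In WT it was 547 in 12 h replicate 5 against 4403 and 9358 in replicates 1 and 2. Neither difference was tested.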
